A study of Mus musculus with 8 samples.

Results

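The 7 voltage-gated sodium channel subunits followed here were the alpha subunits Scn1a, Scn2a, Scn3a, Scn8a and Scn9a and the beta subunits Scn2b and Scn3b. They were chosen by name, as the rows of the count table that carry these gene symbols, and all 7 were found among 34299 genes. Voltage-gated sodium channels carry the inward current of the action potential. Each channel has a pore-forming alpha subunit and auxiliary beta subunits, which are small membrane proteins that tune gating and trafficking and act in cell adhesion. In rodent brain Scn3a is known as the alpha subunit of the embryonic and neonatal period, whereas Scn1a, Scn2a and Scn8a serve the mature brain, and a parallel change from Scn3b to the other beta subunits has been described.

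Whole mouse brains were profiled by RNA-seq of poly-A selected RNA in 3 groups: wild-type (WT) fetuses at gestation day 15 (3 libraries), Cav1 knockout (KO) fetuses at gestation day 15 (3 libraries) and Cav1 KO mice at week 70 (2 libraries). Cav1 encodes caveolin 1, the coat protein of membrane caveolae. The labels give no strain, sex, litter or design of the knockout allele. They describe biological replicates for the fetal groups only, so p-values set a group difference against the spread between these libraries. WT brain at week 70 was not analysed here, so the age comparison lies within the KO, and a comparison of week 70 KO with fetal WT changes age and genotype together.

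Total counts ranged from 19414747 to 20833397 in fetal WT, from 14110031 to 15245283 in fetal KO and from 18924304 to 20203233 at week 70. Depth separated the fetal genotypes completely, so that depth and genotype cannot be told apart. The targeted gene Cav1 held 367, 218 and 329 counts in the WT libraries, 0, 3 and 1 in fetal KO and 1 and 5 at week 70, so it followed the labels. Summed CPM of 14 mature neuron markers was 2338 to 2652 in fetal WT, 1820 to 1930 in fetal KO and 18100 to 19170 at week 70, with none at 0 in all libraries of a group. Of 4 Y-linked genes, week 70 replicate 2 held 2219 summed counts and every other library at most 4, while Xist had 4 counts in that library and 7969 in week 70 replicate 1. The week 70 libraries therefore differed in sex. Xist held 54531 to 60791 counts in fetal WT and 66033 to 93272 in fetal KO, so all fetal libraries read as female. Week 70 replicate 2 thus differed in sex from every fetal library. In WT day 15 replicate 1 the connective tissue gene Col1a1 reached 2334 CPM, against 70.3 and 132 CPM in the other WT libraries.

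The alpha subunits are near relatives, which bears on how reads can be assigned. Of all 50-base windows of a gene's transcripts (GENCODE M21), 6.49% in Scn3a, 5.76% in Scn2a, 4.16% in Scn9a and 4.03% in Scn1a also occurred in another gene. That share was 0.0374% in Scn8a, 1.01% in Scn2b and 0 in Scn3b. How the counting treated reads that match several genes is not given in the sources used here, so a part of the counts of Scn1a, Scn2a, Scn3a and Scn9a is uncertain. That part may be larger where a gene has few counts, and its size was not tested. At week 70 Scn9a had 40 and 62 counts, beside 3092 and 3528 of Scn1a and 3531 and 4080 of Scn2a.

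On GRCm38, 4 of the alpha genes lie together on chromosome 2: Scn3a (ENSMUSG00000057182) at chr2:65457118-65567627, Scn2a (ENSMUSG00000075318) at chr2:65620771-65767447, Scn1a (ENSMUSG00000064329) at chr2:66270778-66440840 and Scn9a (ENSMUSG00000075316) at chr2:66480080-66634962. Scn2a is on the plus strand and the others are on the minus strand. Scn8a (ENSMUSG00000023033) lies alone at chr15:100869858-101045938. Both beta genes are on the plus strand of chromosome 9, Scn3b (ENSMUSG00000049281) at chr9:40269217-40291618 and Scn2b (ENSMUSG00000070304) at chr9:45117782-45130070. Exons of Scn9a share 180 bases with the antisense gene Gm13629, which had at most 142 counts in any library, and the use of strand in counting is not given in the sources used here.

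RefSeq start windows (250 bases before to 50 after a start, GRCm38.p6) were held for 5 of the 7 members, in 7 windows. The stretches upstream of the annotated exons are shown for 4 members called with age, Scn1a, Scn2a and Scn2b higher and Scn9a lower. Capitals mark the only match in these stretches to 6 motifs searched.
Scn1a: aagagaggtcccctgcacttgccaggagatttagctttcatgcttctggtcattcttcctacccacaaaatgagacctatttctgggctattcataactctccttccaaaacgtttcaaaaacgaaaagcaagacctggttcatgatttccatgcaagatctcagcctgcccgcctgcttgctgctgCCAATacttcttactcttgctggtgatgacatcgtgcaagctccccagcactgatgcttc
Scn2a: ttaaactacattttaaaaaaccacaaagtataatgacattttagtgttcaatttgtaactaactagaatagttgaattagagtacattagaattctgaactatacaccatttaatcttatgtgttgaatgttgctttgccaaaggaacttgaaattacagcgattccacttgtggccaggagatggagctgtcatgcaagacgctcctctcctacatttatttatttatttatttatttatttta
Scn2b: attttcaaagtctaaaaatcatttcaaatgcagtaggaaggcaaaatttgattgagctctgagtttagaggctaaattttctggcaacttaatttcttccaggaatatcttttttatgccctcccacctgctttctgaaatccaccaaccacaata
Scn9a: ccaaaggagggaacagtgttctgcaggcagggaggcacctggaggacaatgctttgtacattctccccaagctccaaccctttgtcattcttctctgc
They lie at chr2:66440841-66441087 (minus strand), chr2:65620519-65620763 (plus), chr9:45117626-45117781 (plus) and chr2:66635115-66635212 (minus), and the Scn1a stretch also overlaps an exon of Gm13629. CpG dinucleotides numbered 2 in the Scn2b window, 3 and 9 in those of Scn2a, 5 in that of Scn1a and 9 in that of Scn9a, against 38 and 12 in those of Scn8a and a median of 7 over 32851 windows. On both strands, CCAAT occurred in the Scn1a window and in 37.4% of all windows, and TATAAA in the Scn2a window that starts at chr2:65668436-65668735 and in 13.6%. GGGCGG (35.7% of all windows), TGACG (20.8%), GGACAGC (6.56%) and TTCAGCACC (0.371%) occurred in none of the 7 windows. The last pair are the arms of the element bound by the repressor REST.

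Levels were compared between genes as normalised counts per unit of library size (CPM) and per kilobase of exon, on TMM scaling, which evens out differences in composition. In fetal WT the most abundant member was Scn3b at 32.7 ± 3.16 CPM per kilobase, followed by Scn3a at 16.7 ± 0.921 (SD, n = 3 each). Scn8a at 8.25 ± 0.540 and Scn2a at 7.42 ± 0.595 came next and their ranges overlapped. Scn2b at 4.02 ± 0.331 followed, and Scn1a at 3.16 ± 0.421 and Scn9a at 3.06 ± 0.0339 closed the order with overlapping ranges. Fetal KO kept Scn3b (26.9 ± 1.45) and Scn3a (20.7 ± 1.57) at the top, while Scn2b (4.19 ± 0.388) came last below Scn1a (5.38 ± 0.219) and Scn9a (4.98 ± 0.322).

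At week 70 the order was different. Scn2b led at 89.5 and 85.7 CPM per kilobase in the 2 libraries. Scn2a (18.3 and 22.1), Scn1a (18.3 and 21.8), Scn3b (14.1 and 23.3) and Scn8a (15.9 and 19.6) overlapped with one another. Far below them stood Scn3a at 2.12 and 2.65 and Scn9a at 0.207 and 0.335 CPM per kilobase.

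**Figure D1:**
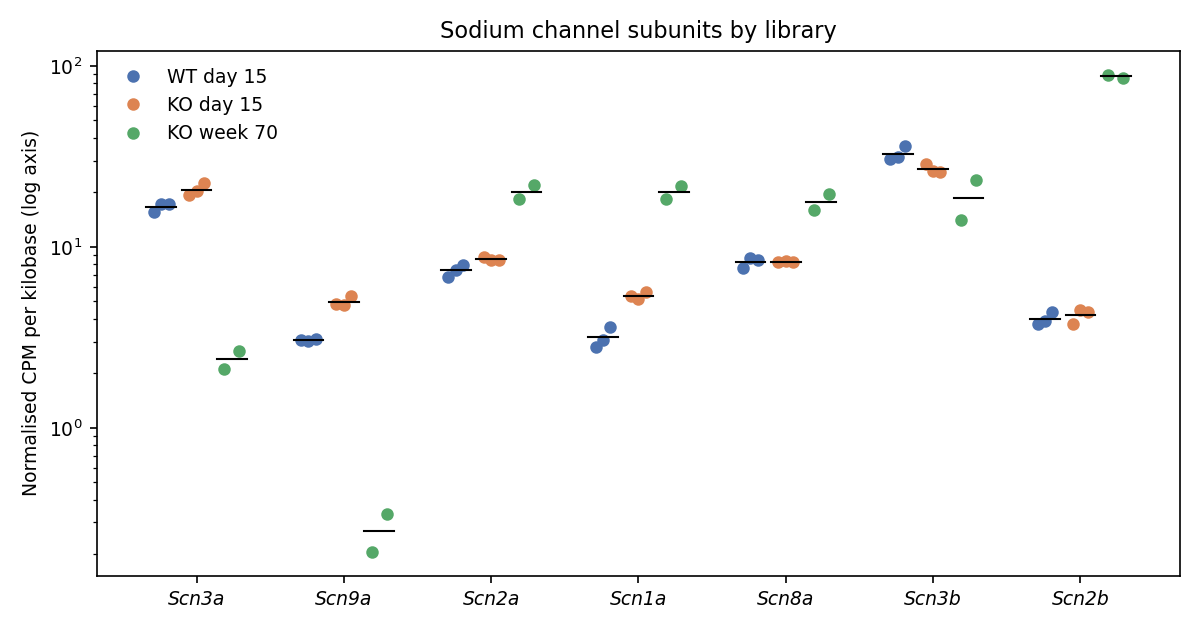
Level of each subunit in every library, as normalised CPM per kilobase of exon on a log axis; points are libraries coloured by group and black bars are group means. Scn3a and Scn9a are lower and Scn2b is higher in both week 70 libraries than in all 6 fetal libraries.

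The genotype comparison in the fetus sets Cav1 KO beside WT at gestation day 15, where depth differed along with genotype. Of the 7 members, all of which passed the filter on low counts, 4 were called higher and 1 lower in KO (edgeR quasi-likelihood test, Benjamini-Hochberg adjusted p under 0.05). Over all 19147 genes tested, 62.6% were called, 30.1% higher and 32.5% lower. CPM did not overlap between genotypes for 5 of the 7 members, against 68.3% of all genes tested. Both shares are close to the background, so calls as such do not set the members apart. The median log2 fold change of the members was 0.24 and that of all genes 0.03. Markers of other cell types also moved with genotype. Of 14 mature neuron markers 2 were called higher and 8 lower in KO, and of 13 immature neuron markers 4 higher and 6 lower. Of 10 progenitor markers 1 was called higher and 9 lower. The summed level of the progenitor markers was 1755 to 1917 CPM in WT and 1407 to 1504 CPM in KO. That sum includes Fabp7, the marker called higher, with a mean of 282 CPM in WT and 786 CPM in KO. Among the 9 called lower, mean Vim was 483 CPM in WT and 176 CPM in KO, and mean Nes was 294 and 54.2 CPM. The summed level of 7 erythroid markers was 1029 to 1310 CPM in WT and 3597 to 4420 CPM in KO, and that of 6 endothelial markers was 171 to 235 CPM in WT and 50.8 to 65.9 CPM in KO. Their part in the members' values was not tested.

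Scn1a, which is prominent in fast-spiking inhibitory neurons, had 31.2, 34.3 and 40.4 CPM in WT and 59.5, 57.8 and 62.6 CPM in fetal KO. Every KO library lay above every WT library. The log2 fold change was 0.81 ± 0.094 (SE), a 1.75-fold difference, with an adjusted p of 2.85e-05 by edgeR.

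Scn9a, best known from peripheral sensory and sympathetic neurons, had 39.2, 38.7 and 39.5 CPM in WT and 61.7, 60.9 and 68.4 CPM in KO. The groups did not overlap, and the WT libraries were nearly identical. It rose by 0.74 ± 0.067 on the log2 scale (1.67-fold, edgeR adjusted p = 4.08e-06). Of 8 markers of peripheral sensory ganglia, 1 was called higher and 3 lower in KO, and their summed level was 102 to 128 CPM in WT and 79.9 to 83.1 CPM in KO. Their part in the difference was not tested.

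Scn3a, the embryonic alpha subunit, had 195, 214 and 215 CPM in WT and 243, 252 and 280.3 CPM in KO. All KO libraries were above all WT libraries, by a smaller fold than for Scn1a and Scn9a. It rose by 0.35 ± 0.076 (log2, 1.28-fold, edgeR adjusted p = 0.00216). Scn2a, the alpha subunit of excitatory axons early in development, had 86.5, 95.2 and 102 CPM in WT and 112, 107 and 107 CPM in KO. It rose by 0.24 ± 0.068 (log2, 1.18-fold, edgeR adjusted p = 0.00982). That call was lost without WT replicate 1 (0.16, adjusted p = 0.053), with no filter on low counts (0.15, 0.101) and with all 8 libraries in the fit (0.21, 0.0638).

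Scn3b, the leading beta subunit of the fetal brain, was the member called lower in KO. Its CPM was 166, 171 and 198 in WT and 156, 144 and 142 in KO, so the groups did not overlap but the nearest libraries were close. The log2 fold change was -0.24 ± 0.077 with an edgeR adjusted p of 0.0196. The call was lost without WT replicate 3 (-0.17, adjusted p = 0.0672), KO replicate 2 (-0.23, 0.0648) or KO replicate 3 (-0.21, 0.0592). It was also lost with all 8 libraries in the fit (-0.28, 0.135), with upper-quartile scaling (-0.07, 0.454) and with an offset that takes out each library's trend on transcript length and GC content (-0.07, 0.461).

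Scn8a, the alpha subunit of mature axon initial segments and nodes of Ranvier, had 121, 137 and 133 CPM in WT and 129.9, 133 and 129.9 CPM in KO, with overlapping groups. Its log2 fold change was 0.05 ± 0.065 (edgeR adjusted p = 0.552). Scn2b, the disulfide-linked beta subunit of mature neurons, had 17.5, 18.2 and 20.4 CPM in WT and 17.5, 20.9 and 20.2 CPM in KO. Its log2 fold change was 0.10 ± 0.11 (edgeR adjusted p = 0.421). Neither passed the threshold, which does not show that they were alike in both genotypes. Both were called higher in KO with the length and GC offset, Scn8a at 0.82 (adjusted p = 3.26e-06) and Scn2b at 0.58 (0.00113), and with upper-quartile scaling, at 0.22 (0.0098) and 0.28 (0.0431).

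Scaling moved the fetal comparison as a whole. Upper-quartile scaling shifted the median of all genes by 0.17 on the log2 scale and the share of higher among called genes from 48.1% to 60.8%, and it called 6 members higher and none lower. Relative to the median of all genes, Scn1a stood at 0.78 under both scalings and Scn9a at 0.71, while Scn3b stood at -0.27. The longest transcripts of Scn8a and Scn2b have a GC content of 50.8% and 50.5%, against 42.1% to 43.4% in the alpha genes of chromosome 2, and the offset moved the latter by much less. Scn1a, Scn3a and Scn9a kept their calls in all 16 alternative settings.

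**Figure D2:**
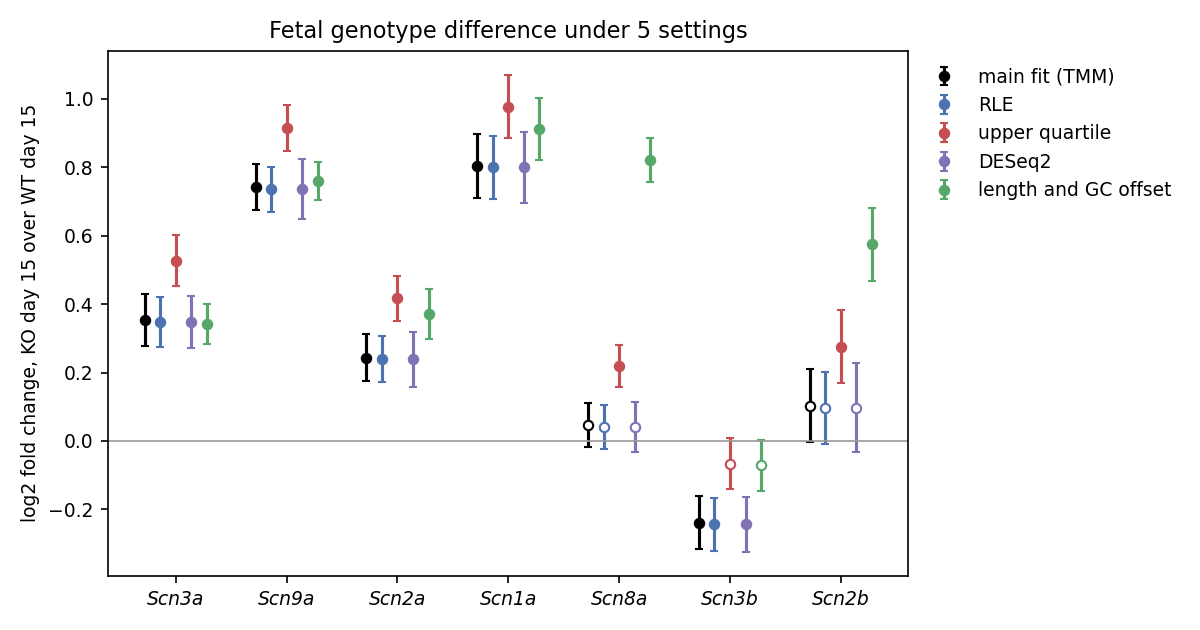
Log2 fold change of KO over WT at day 15 for each subunit under 5 processing settings, with the standard error; filled points have an adjusted p under 0.05 and open points do not. Scn1a, Scn9a and Scn3a are filled and above 0 under all settings drawn, whereas Scn8a moves from 0.05 to 0.82 with the length and GC offset.

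The age comparison within the KO covers the change from fetal to aged brain. All 7 members were called, 4 higher (Scn1a, Scn2a, Scn8a, Scn2b) and 3 lower (Scn3a, Scn9a, Scn3b) at week 70. Of 20000 genes tested, 82% were called, 37.6% higher and 44.4% lower. The groups did not overlap for any of the 7 members, as for 87.9% of all genes tested. Direction and call were kept for all 7 in each of the 15 alternative settings. In bulk tissue fewer cells of a type and less RNA per cell cannot be told apart, and the summed mature neuron markers were higher at week 70, with 14 of 14 called. Of 13 immature neuron markers 12 were called lower and 1 higher, and their summed level went from 5764 to 5880 CPM in fetal KO to 2056 to 2126 CPM. Of 10 progenitor markers 8 were called lower and 1 higher, with summed levels of 1407 to 1504 CPM and 249 to 255 CPM. The part of these changes in the members' values was not tested.

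Scn3a, the most abundant alpha subunit in every fetal library, dropped from 243, 252 and 280.3 CPM in fetal KO to 26.5 and 33.0 CPM at week 70. Both aged libraries were far below each fetal one. The log2 fold change was -3.22 ± 0.13, a 9.31-fold lower level (edgeR adjusted p = 3.68e-09).

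Scn9a dropped further, from 61.7, 60.9 and 68.4 CPM to 2.64 and 4.28 CPM, which rest on 40 and 62 counts. The log2 fold change was -4.30 ± 0.18, or 19.8-fold lower (edgeR adjusted p = 4.2e-09). Of the 8 markers of peripheral sensory ganglia, 3 were called lower and none higher with age, with summed levels of 34.3 to 61.0 CPM at week 70. Their part in the drop was not tested.

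The mature alpha subunits all rose, to unequal extents. Scn1a went from 59.5, 57.8 and 62.6 CPM to 204 and 243 CPM (log2 1.80 ± 0.098, 3.48-fold, edgeR adjusted p = 3.59e-08). Scn2a went from 112, 107 and 107 CPM to 233 and 282 CPM (1.14 ± 0.096, 2.21-fold, 1.21e-06). Scn8a went from 129.9, 133 and 129.9 CPM to 250.5 and 309 CPM (1.00 ± 0.10, 2.00-fold, 4.78e-06). In all 3 genes week 70 replicate 2 was the higher of the aged libraries and the groups were well apart.

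Scn2b had the largest rise among the members, from 17.5, 20.9 and 20.2 CPM to 417 and 399 CPM. The aged libraries differed little from each other. The log2 fold change was 4.28 ± 0.10, or 19.5-fold (edgeR adjusted p = 1.43e-10). Scn3b fell from 156, 144 and 142 CPM to 77.2 and 127 CPM, a log2 fold change of -0.62 ± 0.17 (edgeR adjusted p = 0.00611). The aged libraries disagreed on its size: the value was -0.29 (adjusted p = 0.0209) without week 70 replicate 1 and -1.03 (2.6e-06) without replicate 2.

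**Figure D3:**
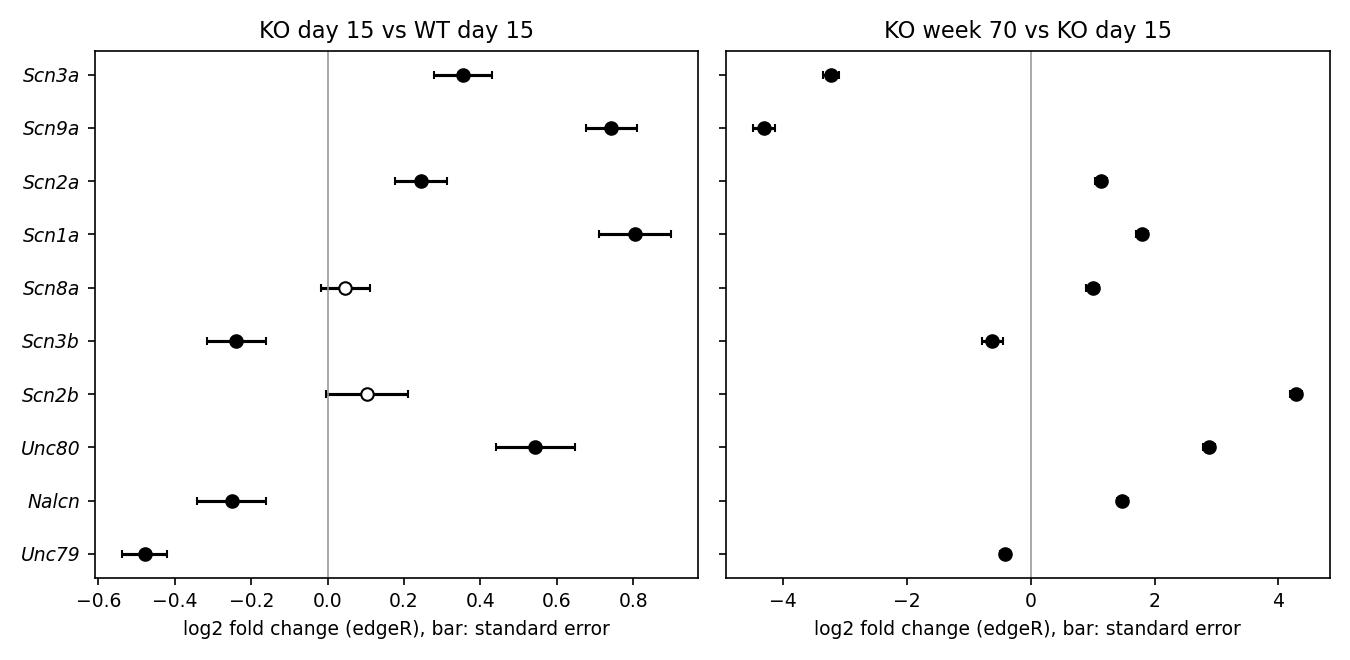
Log2 fold changes of sodium channel genes with standard errors, for the fetal genotype comparison and for age within the KO, on x axes of different range; filled points have an adjusted p under 0.05. With age Scn3a and Scn9a lie at -3.22 and -4.30 and Scn2b at 4.28, while fetal genotype differences of the same genes stay below 1.

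Set against fetal WT in place of fetal KO, the week 70 libraries gave the same directions: 4 members higher and 3 lower, against 78.6% of 19465 genes called, 36.7% higher and 41.9% lower, and 86.4% without overlap. The values were 2.65 for Scn1a, 1.43 for Scn2a, 1.09 for Scn8a, 4.43 for Scn2b, -2.82 for Scn3a, -3.52 for Scn9a and -0.82 for Scn3b on the log2 scale. Both comparisons share the week 70 libraries, and here age and genotype cannot be told apart. Because fetal KO was above fetal WT in Scn1a and Scn3a, the rise of Scn1a was larger and the drop of Scn3a smaller against WT than against KO.

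The make-up of the alpha subunits was described as each gene's share of the summed CPM per kilobase of the 5 alpha members. Scn3a held 43.3 ± 0.480% in fetal WT, 43.2 ± 1.58% in fetal KO (SD, n = 3 each) and 3.87% and 3.99% in the aged libraries. In the aged brain Scn2a (33.4% and 33.2%), Scn1a (33.4% and 32.8%) and Scn8a (28.99% and 29.5%) held nearly equal parts. Between fetal genotypes Scn1a moved from 8.19 ± 0.686% to 11.2 ± 0.209% and Scn9a from 7.96 ± 0.499% to 10.4 ± 0.273%, whereas Scn8a moved from 21.4 ± 0.569% to 17.3 ± 0.775%. The summed level of the 5 was 38.6 ± 2.35 CPM per kilobase in fetal WT, 47.95 ± 1.91 in fetal KO and 54.8 and 66.5 at week 70. Shares are linked, since a rise of any gene lowers the others. They were not recomputed with the length and GC offset, under which Scn8a itself was higher in fetal KO (0.82 on the log2 scale), as was its ratio to Scn3a (0.50), so the lower share of Scn8a rests on values without that offset.

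Of the summed CPM per kilobase of Scn2b and Scn3b, Scn3b held 89.04 ± 0.180% in fetal WT and 86.5 ± 1.66% in fetal KO, but 13.6% and 21.4% at week 70. The balance between these beta subunits was thus inverted in both aged libraries. Their summed level was 36.7 ± 3.49 CPM per kilobase in fetal WT, 31.1 ± 1.09 in fetal KO and 104 and 109 at week 70. It stood near that of the 5 alpha members in fetal WT, below it in fetal KO and above it in the aged brain.

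**Figure D4:**
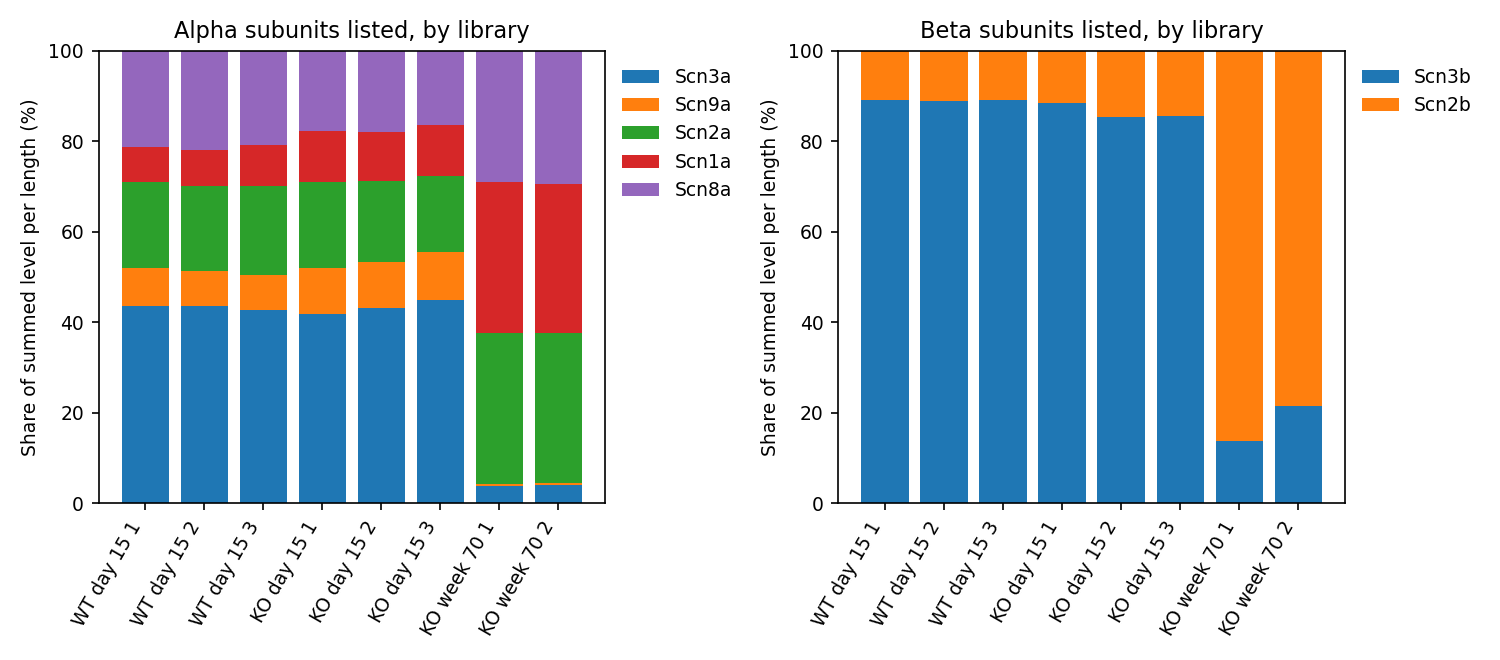
Share of each gene in the summed level per kilobase of the 5 alpha members (left) and of Scn2b and Scn3b (right), in percent, 1 bar per library. Scn3a and Scn3b fill the largest share in the fetal libraries, and Scn1a, Scn2a and Scn8a together with Scn2b do so at week 70.

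Ratios of a pair of genes within a library do not depend on library scaling. They were tested by exact two-sided permutation over libraries for 5 ratios and 3 pairs of groups, 15 tests in all, in which p cannot go below 0.1. In 14 of them p was 0.1 (0.107 after Benjamini-Hochberg adjustment over the 15) because the groups did not overlap. The remaining test, Scn2a to Scn3a between fetal genotypes, gave an exact permutation p of 0.3. None could reach 0.05 with these numbers of libraries.

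Per length, Scn8a stood at 0.489, 0.505 and 0.489 of Scn3a in fetal WT, at 0.423, 0.415 and 0.366 in fetal KO and at 7.47 and 7.38 times Scn3a at week 70. The ratio was thus inverted in the aged brain, with an 18.6-fold change within the KO. Between fetal genotypes it was 0.30 lower on the log2 scale in KO, and with the length and GC offset it was 0.50 higher, so its direction between genotypes depends on that setting. Scn1a to Scn3a was 0.179, 0.179 and 0.21 in WT, 0.274, 0.256 and 0.25 in fetal KO and 8.61 and 8.23 at week 70. Here fetal KO lay between the other groups, 1.38-fold above WT.

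Scn2a to Scn3a was 0.435, 0.435 and 0.463 in WT and 0.452, 0.416 and 0.375 in fetal KO, which overlapped, and 8.61 and 8.33 at week 70. Scn9a to Scn3a was 0.196, 0.176 and 0.18 in WT, 0.248, 0.236 and 0.238 in fetal KO and 0.0984 and 0.127 at week 70. Fetal KO was therefore on the far side of WT from the aged brain for this ratio, unlike for Scn1a. Scn2b to Scn3b was 0.123, 0.126 and 0.121 in WT, 0.131, 0.171 and 0.168 in fetal KO and 6.33 and 3.67 at week 70. Between the aged libraries Scn3b differed more than Scn2b.

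**Figure D5:**
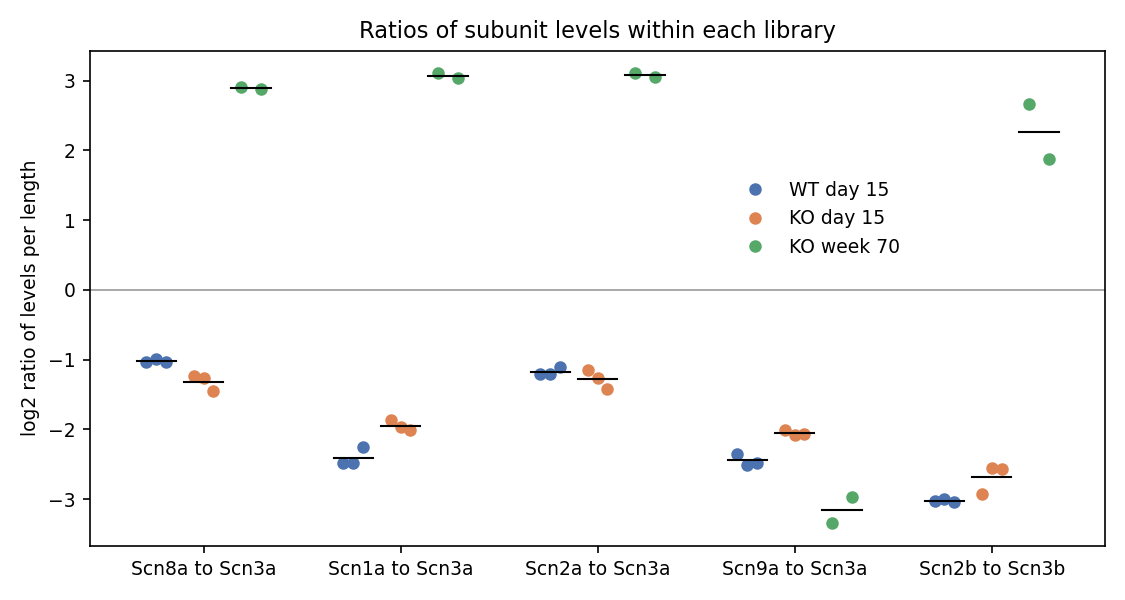
Log2 ratio of levels per kilobase within each library for 5 pairs of subunits; points are libraries coloured by group, black bars are group means, and 0 marks equal levels. Scn1a, Scn2a and Scn8a are below Scn3a in all 6 fetal libraries and above it in both week 70 libraries.

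Other sodium channel genes were taken from a list of 8 genes. Between fetal genotypes 1 of the 7 tested was called higher and 3 lower, with a median log2 fold change of -0.74. Of all genes tested, 30.1% were called higher and 32.5% lower. Unc80, an auxiliary subunit of the sodium leak channel, rose by 0.54 ± 0.10 (log2). Nalcn, the pore of that channel, was lower (-0.25 ± 0.090), as were Unc79 (-0.48 ± 0.059) and Scn4b. With the length and GC offset Unc79 turned to 0.29. The call of Nalcn was lost in 6 of 16 alternatives, among them the same offset (-0.062, edgeR adjusted p = 0.576). Scn4b, a beta subunit that shapes resurgent current, fell from 15, 14 and 13 counts to 1, 3 and 0 in fetal KO (log2 -3.01 ± 0.65, edgeR adjusted p = 0.00213), few counts that were no longer called with all 8 libraries in the fit (0.0794). The value was -4.23 without KO replicate 2 and -2.23 with the length and GC offset.

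Scn7a, Scn10a and Scn11a were not called between fetal genotypes. Scn10a, a sensory neuron channel, had 90 counts in WT replicate 1 and 15 in each other WT library, and Scn7a had 89, 13 and 17. The same library held the excess of Col1a1. Without it the value of Scn10a went from -1.58 to -0.26 and that of Scn7a from -0.74 to 0.57. Scn4a, the skeletal muscle channel, had at most 3 counts and was not tested.

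With age 4 of the 7 were called higher and 2 lower, against 37.6% and 44.4% of all genes tested. Scn4b, whose gene begins 8324 bases after the end of Scn2b, went from 1, 3 and 0 counts to 6071 and 2475. The neighbours Scn2b and Scn4b were thus both higher with age, and Scn3b was lower. Unc80 (2.88 ± 0.098), Nalcn (1.48 ± 0.091) and Scn7a (1.46 ± 0.34) rose as well, while Unc79 (-0.41 ± 0.082) and Scn11a (-2.37 ± 0.92, at most 11 counts) fell. The call of Scn11a was lost in 3 of the 9 alternatives in which it was tested, and its value was -6.17 without week 70 replicate 2 and -1.39 without week 70 replicate 1.

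Known partners of the channels were taken from a list of 24 genes for clustering, trafficking, regulation and splicing. Between fetal genotypes 3 were called higher and 16 lower, with a median of -0.38 on the log2 scale. The shares over all genes tested were 30.1% higher and 32.5% lower. The rises were S100a10, an annexin partner that binds a sensory channel (1.66 ± 0.26), and the fibroblast growth factor homologues Fgf14 (0.62 ± 0.093) and Fgf12 (0.28 ± 0.11). The 5 largest falls were those of Nova2, a neuronal splicing factor (-2.36 ± 0.072), Nedd4l, a ubiquitin ligase (-0.88 ± 0.063), Nfasc, which encodes neurofascin (-0.84 ± 0.058), Rbfox3, which encodes the neuronal marker NeuN (-0.73 ± 0.11), and the ankyrin gene Ank2 (-0.73 ± 0.066). With the length and GC offset Fgf14 was at -0.02 and Nfasc at 0.19, and neither Fgf12 (0.08), Ank2 (-0.15) nor Rbfox3 was called. With that offset and the replicate block Rbfox3 was at -0.0079 and not called (edgeR adjusted p = 0.952), and Nova2 was at -1.20 and kept its call.

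With age 16 of the 24 partners were called higher and 5 lower, with a median of 0.71. The shares over all genes tested were 37.6% higher and 44.4% lower. The 5 largest rises were those of Cntnap1 (4.70 ± 0.13), the potassium channels Kcna1 (4.25 ± 0.11) and Kcna2 (3.51 ± 0.097), Cntn1 (3.25 ± 0.10) and Fgf12 (2.97 ± 0.094). The falls were those of Prrt2 (-2.84 ± 0.49), the repressor gene Rest (-1.65 ± 0.15), Rbfox2 (-0.71 ± 0.086), S100a10 (-0.56 ± 0.11) and Ank3, the ankyrin of the axon initial segment (-0.22 ± 0.092). Prrt2 had group means under 2 CPM, from 30, 36 and 30 counts in fetal KO and 3 and 5 at week 70. The call of Ank3 was lost in 8 of 15 alternatives, with an edgeR adjusted p of at most 0.197. S100a10 was at 1.02 with the length and GC offset. Of 11 oligodendrocyte markers, all were called higher with age, and their summed level went from 115 to 133 CPM in fetal KO to 13820 to 13930 CPM. The part of these cells in the partners' values was not tested.

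The genes whose profiles over the 8 libraries lay nearest to each member were found by the root mean square distance of centred log2 CPM. The distance rests mostly on the 3 group means, so it is a description of level patterns. Nearest to Scn1a were Rit2 (distance 0.081, Pearson r = 0.997), Tmem196 and Cacnb4. Nearest to Scn2a were Rnf14 (0.060, 0.995), Atg4c and Adam23, and nearest to Scn8a were Homer2 (0.055, 0.994), Gramd1b and Oxsm. Scn3a was closest to Slc4a7 (0.064, 0.999), Zbtb37 and Adam8. Scn2b was closest to Ugt8a (0.12, 0.998), Kcnab1 and Sytl2, and Scn3b to Arxes1 (0.073, 0.982), Isoc1 and Mettl16. For Scn9a the nearest were Rpl28-ps1 (0.11, 0.999), Atp5pb-ps and Wsb1, of which the first pair are named as pseudogenes.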

How the data were processed

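Poly-A selected RNA of 8 whole mouse brain libraries was sequenced. The authors deposited raw counts for 34299 Ensembl genes in a single table, per the file headers. FastQC, cutadapt, Trimmomatic, HISAT2, featureCounts and edgeR, and the builds GRCm38 and GRCm39, are named without role or version per the submitters' processing notes. Tests used edgeR 4.0.16 under R 4.3.3 (filterByExpr, TMM, quasi-likelihood F-test, Benjamini-Hochberg adjustment over all genes tested, threshold 0.05), each comparison on its own libraries, with SE from the F statistic. Floors and intervals would cover counting error only, since reads carry no molecular identifiers. A count of 0 allows up to 3 counts, or 0.14 to 0.207 normalised CPM per library. Exon lengths and positions came from GENCODE M21 on GRCm38, which matched 33365 identifiers (97.3%). Start windows came from RefSeq, GRCm38.p6.

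The members and gene lists were chosen with earlier results of these data known. All members and the other sodium channel genes listed were named, with the 5 largest called rises and falls among the partners per comparison and the 3 nearest profiles per member among genes with a mean of at least 50 counts leaving out predicted genes and clones. Ratios used counts plus 0.5. As alternatives, TMM was replaced by RLE or by upper-quartile scaling, the filter was dropped or set to a mean of at least 10 counts, and edgeR was replaced by DESeq2 1.42.0. Further alternatives were a joint fit of all 8 libraries, removal of haemoglobin and mitochondrial genes, an offset for transcript length and GC content (smoothed per library with mgcv 1.9.3), the replicate block with and without that offset, each library left out, and ratios with 5 counts added. The scripts were tested on simulated data. Replicates of a group differed by more than sampling noise, with a chi-square statistic of 3.20 to 21.5 per gene between libraries of a group. Some genes and sequences are not reported here.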

Additional observations from a re-analysis of the deposited data

How the results depend on the processing

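All 7 members kept direction and call with age in all 15 alternatives. Between fetal genotypes Scn1a, Scn3a and Scn9a did so in all 16, Scn2a in 13 and Scn3b in 9, while Scn8a and Scn2b gained a call in 3. The count of members called lower was 0 with upper-quartile scaling, all 8 libraries in one fit, and the length and GC offset, alone or with the replicate block, and 0 to 1 with each library left out. With the length and GC offset the log2 ratio differences were, for Scn8a to Scn3a, 0.50 between fetal genotypes, 3.66 for age and 4.16 for week 70 against WT. For Scn1a to Scn3a the age value was 4.80. For Scn2a to Scn3a the values were 0.031, 4.17 and 4.198 in the same order, and for Scn2b to Scn3b the fetal value was 0.64. The cause was not tested.

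Values that changed sign with the length and GC offset, and then with it and the replicate block, were, between fetal genotypes, Unc79 (0.29, 0.29), Fgf14 (-0.018, -0.017), Nfasc (0.19, 0.19), Cntnap1 (0.86, 0.87), Rest (0.048, 0.055), Rbfox2 (0.25, 0.26), Ank3 (0.031, 0.033) and, with the offset alone, Kcna2 (0.23). With age they were S100a10 (1.02, 1.03), and in week 70 against WT Nfasc (0.083, 0.10). The offset shifted the median of all genes by 0.13 with age and upper-quartile scaling by -0.25.

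Same-numbered fetal libraries deviated in opposite ways (correlations -0.14, -0.17 and -0.15), and those of different number had correlations of 0.061 to 0.086. Deviations were centred within each group, which ties these values to one another. They therefore cannot show whether the numbers pair samples. The replicate block called 11184 genes between fetal genotypes against 11993, 14712 against 16390 with age and 13272 against 15300 for week 70 against WT. In both comparisons with week 70 the block left out the fetal library that has no same-numbered week 70 library, so fewer libraries entered those fits. Depth limits Scn4a, Scn4b in fetal KO and Scn11a, which had few counts.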
